A study of Mus musculus with 16 samples.

Results

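The microRNAs miR-10a-5p and miR-10b-5p were measured in small RNA of mouse sperm by counting reads of 20 to 26 nt that begin with the first 20 bases of either mature sequence. They are 2 of the 545 microRNA arms (distinct first 20 bases) with at least 1 read in any of the 8 sperm libraries. Between 26483 and 68049 reads of a library met the rule, of 10165031 to 19030258 reads in all. The 8 libraries form 4 groups of 2, all from mature sperm of the cauda epididymis of males on the C57BL/6NCrl background. The groups were Dnmt2-/- males on a high-fat diet (HFD, D12492), Dnmt2+/+ males on HFD, Dnmt2-/- males on a normal diet (ND, Diet 1415) and Dnmt2+/+ males on ND. Per the labels' protocols, the knockout allele Dnmt2tm1Bes came on a mixed B6;129 background and was backcrossed for more than 5 generations. The males bought for the work were 6 weeks old at purchase. Age at sperm collection and the length of the diet are not given in the sources used here. Dnmt2 (Trdmt1) methylates cytosines in tRNA, and the comparisons ask how diet and its loss alter sperm small RNA. Small RNA reads do not measure Dnmt2 mRNA, so the knockout itself was not checked here.

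A microRNA is cut from one arm of a hairpin precursor and guides Argonaute proteins to messenger RNAs that pair with its seed, bases 2 to 8. The miR-10 genes lie inside Hox gene clusters, which set position along the body axis, and the mature sequences are among the most conserved microRNAs of animals. In mature sperm, microRNAs are a minor class beside fragments of tRNA, and part of the sperm microRNA load is acquired while sperm pass through the epididymis.

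The mature sequences, credited to RefSeq with build GRCm38.p6, are shown with the seed in capitals because the members share it. The wider family (miR-99a-5p, miR-99b-5p and miR-100-5p) is printed below them because its seed is another one, ACCCGUA in place of ACCCUGU.
miR-10a-5p: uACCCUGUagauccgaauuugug
miR-10b-5p: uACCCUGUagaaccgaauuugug
miR-99a-5p: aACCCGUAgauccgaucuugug
miR-99b-5p: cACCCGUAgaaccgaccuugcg
miR-100-5p: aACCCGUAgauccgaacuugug
The mature miR-10a-5p and miR-10b-5p differ at one base, U12A, counted from 1 at the 5′ end with the base of miR-10a-5p first. This base lies within the first 20, so every counted read tells the members apart.

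The hairpins, with the mature 5p and 3p arms in capitals, show which bases follow the mature 5p end, and so which 3′ additions can be recognised.
Mir10a hairpin: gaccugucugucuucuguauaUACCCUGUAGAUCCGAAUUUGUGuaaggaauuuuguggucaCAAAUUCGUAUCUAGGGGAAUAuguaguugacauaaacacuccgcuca
Mir10b hairpin: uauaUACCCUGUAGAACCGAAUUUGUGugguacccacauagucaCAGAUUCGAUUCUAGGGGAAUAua
In both hairpins the base after the mature end is U, so a U added there cannot be told from the genome's own. The same holds at any other read end where the added base equals the hairpin's. Mir10a lies at chr11:96317165-96317274 on the plus strand (GRCm38.p6), inside the span of Hoxb3 and 993 bp from Hoxb4. Mir10b lies at chr2:74726070-74726137 on the plus strand, inside the spans of Hoxd3 and Hoxd4. The mature 5p sequences are at chr11:96317186-96317208 and chr2:74726074-74726096. Whether these places are exonic or intronic was not analysed here.

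The libraries fall into 3 sets by base changes at fixed read positions, which the labels do not mention. Whether the changes arose in sequencing or before it was not tested, and the name sequencing set below refers to these marks alone. In set A (Dnmt2-/- ND 1 and 2, Dnmt2+/+ ND 1) G was read as T at base 29 of abundant sequences at a median rate of 400 to 537 per 10000, against at most 4.01 elsewhere. In set B (Dnmt2-/- HFD 1, Dnmt2+/+ HFD 1 and 2) C was read as G at base 26 at 9.44 to 10.4 per 10000, against at most 1.10 elsewhere. Set C (Dnmt2-/- HFD 2, Dnmt2+/+ ND 2) had neither mark, so its libraries are joined only by the lack of both. Diet and set therefore cannot be told apart outside set C, which holds 1 library of each diet, and those also differ in genotype. The labels do not say that the libraries of a group came from separate animals, so the spread behind each p-value may be technical.

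Both miR-10 members had more counts per 1000000 reads (CPM) in all 4 HFD libraries than in all 4 ND libraries, and Dnmt2-/- ND sperm had the lowest levels. As a share of microRNA reads this order did not hold. miR-10a-5p was at 3039 and 2760 CPM in Dnmt2-/- HFD, 3344 and 3363 in Dnmt2+/+ HFD, 1114 and 1102 in Dnmt2-/- ND and 1956 and 2087 in Dnmt2+/+ ND sperm. miR-10b-5p was at 1899 and 1842 CPM in Dnmt2-/- HFD, 2344 and 2372 in Dnmt2+/+ HFD, 908 and 912 in Dnmt2-/- ND and 1619 and 1735 in Dnmt2+/+ ND sperm. The order of the groups was the same for both members, Dnmt2+/+ HFD, Dnmt2-/- HFD, Dnmt2+/+ ND and Dnmt2-/- ND from high to low, and no neighbours in that order overlapped. Of the 187 arms tested, 26 (13.9%, both members among them) had all HFD above all ND libraries by CPM. In bulk RNA, fewer cells of a type and less RNA per cell cannot be told apart.

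**Figure D1:**
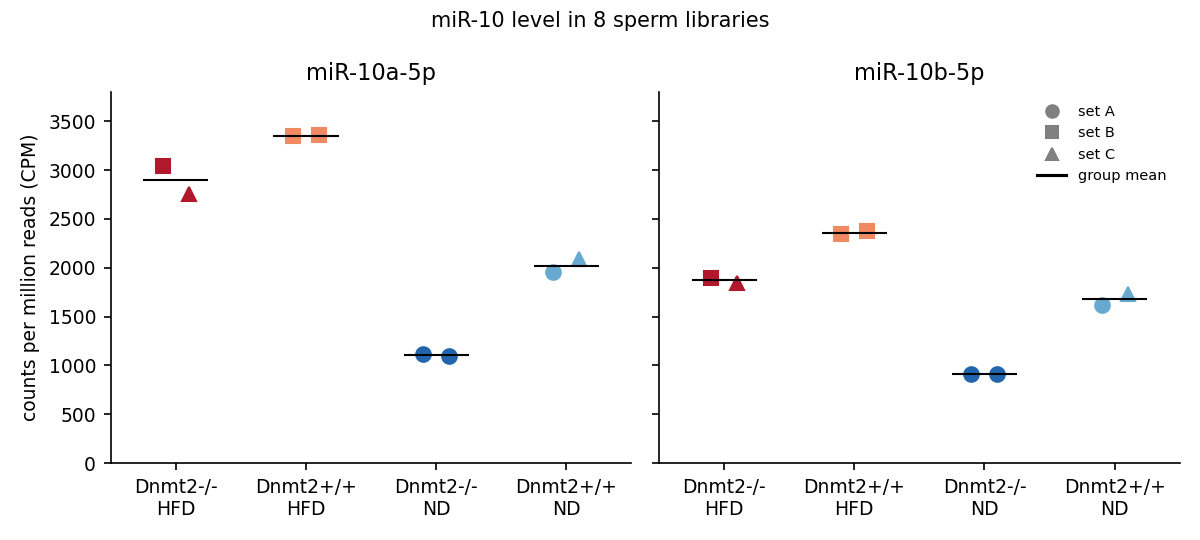
CPM of miR-10a-5p (left) and miR-10b-5p (right) in the 8 sperm libraries by group. Points are libraries, shaped by sequencing set, and bars are means of 2. The 2 libraries of a group lie close together, and for miR-10a-5p the HFD libraries at 2760 to 3363 CPM lie above the ND libraries at 1102 to 2087.

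Summed over the members, the level was 5241 ± 561 CPM in HFD and 2858 ± 976 CPM in ND libraries (SD, n = 4 each). The difference of 2383 CPM had p = 0.0286 in a two-sided exact permutation test of 4 libraries against 4, the smallest p this design can give, and 0.2 after Benjamini-Hochberg adjustment over 14 tests. HFD exceeded ND by 2752 CPM in Dnmt2-/- and by 2013 CPM in Dnmt2+/+ sperm. Within set C the sum was 4602 CPM in the HFD library and 3822 CPM in the ND library. The difference there, 780 CPM, was in the same direction and smaller than in either genotype.

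By genotype, the sum was 3394 ± 1595 CPM in Dnmt2-/- and 4705 ± 1167 CPM in Dnmt2+/+ libraries (SD, n = 4 each; exact permutation p = 0.257, adjusted 0.514). Within one diet the libraries did not overlap. The difference of Dnmt2-/- minus Dnmt2+/+ sperm was -942 CPM on HFD and -1681 CPM on ND. By CPM both members were lower in Dnmt2-/- than in Dnmt2+/+ sperm on each diet, as were 38% of the 187 arms on HFD and 36.4% on ND. Within sets, the same difference was -1558 CPM in set A and -773 CPM in set B.

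Across the 187 arms, edgeR's quasi-likelihood test with total reads as library size called neither member in any of 5 comparisons. For HFD against ND in Dnmt2-/- sperm the log2 fold change was 1.39 ± 0.38 (SE) for miR-10a-5p, with a Benjamini-Hochberg adjusted p of 0.0976, and 1.04 ± 0.38 for miR-10b-5p, with 0.156. The median of all 187 arms in that comparison was 2.05, so 120 arms had a larger fold change than miR-10a-5p and 151 than miR-10b-5p. For HFD against ND in Dnmt2+/+ sperm edgeR gave 0.73 ± 0.37 for miR-10a-5p (adjusted p = 0.608) and 0.49 ± 0.38 for miR-10b-5p (0.767), beside a median of 0.61. These directions hold on the scale of all reads: with TMM factors, microRNA reads as library size or DESeq2, both members' estimates changed sign in both diet comparisons and in both genotype comparisons. Under TMM the median of all arms was -0.08 in Dnmt2-/- and -0.19 in Dnmt2+/+ sperm for HFD against ND. In each diet comparison 0.535% of the arms (1 arm, let-7f-5p) passed an adjusted p of 0.05.

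For Dnmt2-/- against Dnmt2+/+ sperm on ND the log2 fold change was -0.87 ± 0.37 for miR-10a-5p and -0.88 ± 0.38 for miR-10b-5p (edgeR, adjusted p = 0.255 for both). The median arm was at -1.65 there, and 37 and 40 arms had a higher value than miR-10a-5p and miR-10b-5p. On HFD the members were at -0.21 and -0.33 (adjusted p = 0.971 for both), with a median of -0.51. The interaction of diet and genotype was 0.66 ± 0.52 for miR-10a-5p and 0.55 ± 0.54 for miR-10b-5p (adjusted p = 0.789 for both). Under edgeR 0 of 187 arms passed in these 3 comparisons, 0% in each. At an unadjusted p under 0.05 there were 26 on ND, 0 on HFD and 2 for the interaction, and DESeq2 called 0 in each.

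By CPM, the members' levels repeated closely within groups. The pooled within-group SD of log2(CPM + 1) was 0.039 for miR-10b-5p and 0.060 for miR-10a-5p, the smallest and second smallest of the 27 arms with a mean of at least 100 CPM. The next arm, miR-182-5p of the miR-183 cluster, had 0.34, and miR-200c-3p, the most variable of the 27, had 1.55. In 2 groups the libraries come from different sets. There, miR-10a-5p was at 3039 and 2760 CPM (Dnmt2-/- HFD) and at 1956 and 2087 CPM (Dnmt2+/+ ND). In the same Dnmt2-/- HFD group miR-200c-3p was at 1808 and 251 CPM, and in the same Dnmt2+/+ ND group at 87.0 and 755 CPM.

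Relative to other microRNAs the diet means stood the other way round. All counted microRNAs took 5.92% and 2.61% of the reads in Dnmt2-/- HFD, 7.01% and 5.32% in Dnmt2+/+ HFD, 1.08% and 1.33% in Dnmt2-/- ND and 2.76% and 2.10% in Dnmt2+/+ ND libraries. Of these microRNA reads, miR-10a-5p and miR-10b-5p together made up 8.35% and 17.7% in Dnmt2-/- HFD, 8.11% and 10.8% in Dnmt2+/+ HFD, 18.8% and 15.1% in Dnmt2-/- ND and 13.0% and 18.2% in Dnmt2+/+ ND libraries. The share averaged 11.2% ± 4.45 in HFD and 16.3% ± 2.71 in ND libraries (SD, n = 4 each; exact permutation p = 0.114, adjusted 0.4), and the groups overlapped. In set C it was nearly equal, at 17.7% in the HFD library and 18.2% in the ND library. By this share 8 of the 187 arms (4.28%) had all HFD below all ND libraries and 10 (5.35%) all above, and neither member was among them. miR-10a-5p ranked 4 to 6 among microRNA arms in HFD libraries and 2 or 3 in ND libraries, and miR-10b-5p ranked 5 to 9 and 3 or 4.

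That share changed direction when let-7 was left out. let-7 is an abundant family of differentiation-linked microRNAs. With let-7 reads left out of the total, a setting chosen after seeing the data, miR-10 made up 25.6%, 31.3%, 22.9% and 27.8% of the remaining microRNA reads in the HFD libraries, in the order above. The ND libraries had 24.7%, 17.96%, 15.4% and 21.9%. The mean difference turned to 6.91 percentage points higher on HFD, and the groups overlapped at 1 ND library. let-7f-5p alone was at 13448, 4605, 17916 and 14200 CPM in the HFD libraries and at 852, 629, 1019 and 1123 CPM in the ND libraries.

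**Figure D2:**
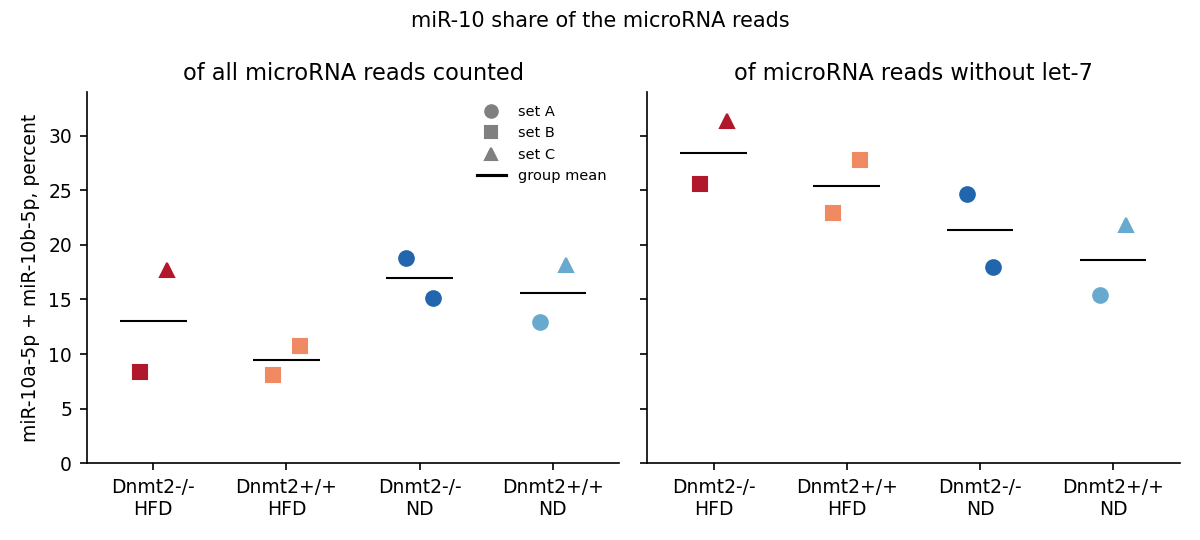
miR-10a-5p and miR-10b-5p together, as percent of all counted microRNA reads (left) and of microRNA reads without let-7 (right), by group. Points are libraries, shaped by sequencing set, and bars are means of 2. On the left 3 HFD libraries (8.11% to 10.8%) lie below every ND library, and on the right the HFD libraries (22.9% to 31.3%) lie above 3 of the 4 ND libraries.

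miR-10a-5p exceeded miR-10b-5p in every library, and by more on HFD. The ratio of their reads was 1.60 and 1.498 in Dnmt2-/- HFD, 1.43 and 1.42 in Dnmt2+/+ HFD, 1.23 and 1.21 in Dnmt2-/- ND and 1.21 and 1.20 in Dnmt2+/+ ND sperm. The HFD libraries all lay above the ND libraries, which spanned only 1.20 to 1.23. A ratio within a library does not depend on its total or on the scaling of libraries.

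On the log2 scale the ratio averaged 0.57 ± 0.08 in HFD and 0.28 ± 0.01 in ND libraries (SD, n = 4 each). The difference of 0.29 had an exact permutation p of 0.0286, the smallest possible, and 0.2 after adjustment over 14 tests. It was 0.35 in Dnmt2-/- and 0.24 in Dnmt2+/+ sperm. Within set C the log2 ratio was 0.58 in the HFD library and 0.27 in the ND library. Genotype gave 0.46 ± 0.20 in Dnmt2-/- and 0.39 ± 0.14 in Dnmt2+/+ libraries (exact permutation p = 0.514, adjusted 0.6), a difference that was -0.00533 without Dnmt2-/- HFD replicate 1.

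The ratio was then taken within each form of the reads. Among 22-nt reads whose last base is in the hairpin it was 1.51 to 1.69 in HFD and 1.07 to 1.20 in ND libraries, and among 21-nt reads 1.41 to 1.63 and 0.978 to 1.23. Reads with an untemplated last base gave 1.28 to 1.52 in HFD and 0.877 to 1.17 in ND libraries. In these forms the diets did not overlap. In 23-nt reads, the full length of the RefSeq sequence, the ratio was 1.19 to 1.43 in HFD and 1.33 to 1.54 in ND libraries, and in 24-nt reads 1.39 to 2.11 and 1.30 to 2.14. The diets overlapped in both longer forms.

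**Figure D3:**
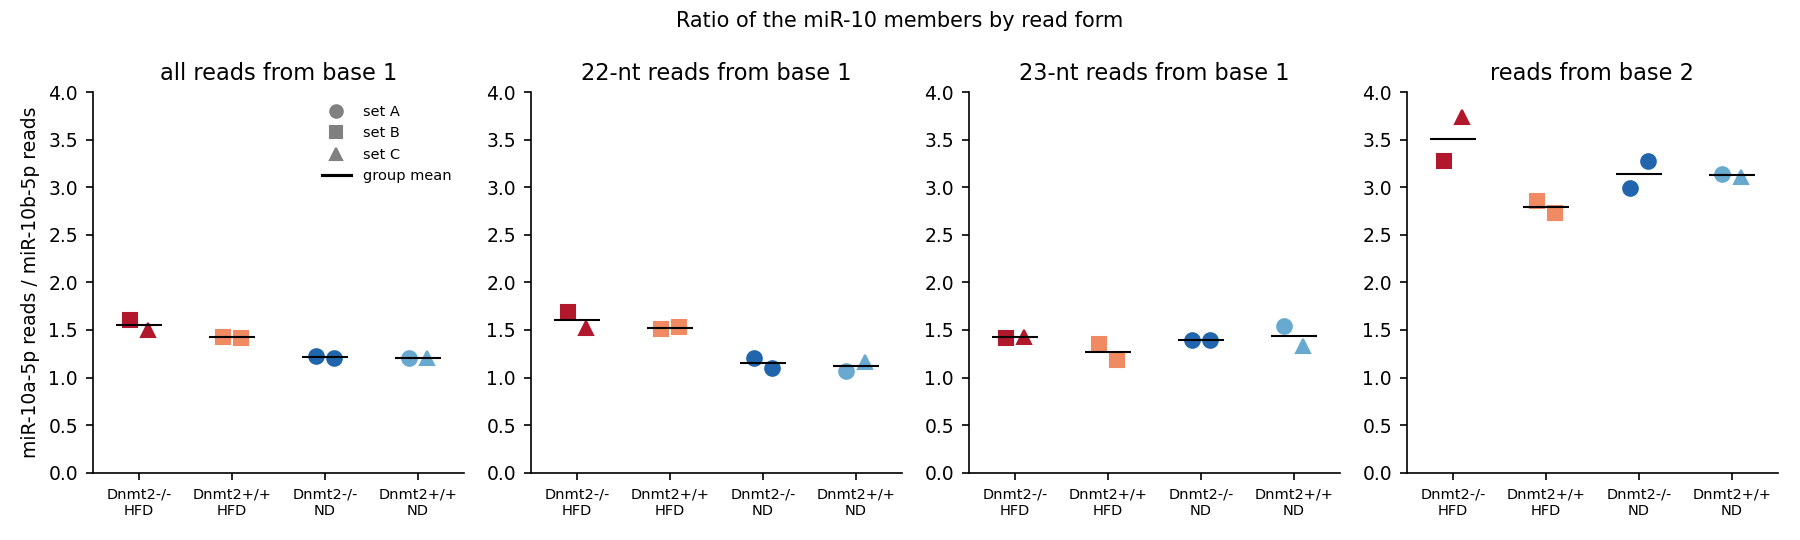
Ratio of miR-10a-5p to miR-10b-5p reads by group, for all reads that start at base 1, for 22-nt and 23-nt reads among them whose last base is in the hairpin, and for reads that start at base 2. Points are libraries, shaped by sequencing set, and bars are means of 2. The diets are apart in the first and second panels (1.42 to 1.60 on HFD and 1.20 to 1.23 on ND over all reads) and overlap in the others.

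A few forms made up most of the reads. Of 169 distinct reads of miR-10a-5p and 188 of miR-10b-5p, the 5 with the highest mean level held 89.5% and 87.7% of the counts. They are shown because they carry the length and end results, as T in place of U, with a last base that is not in the hairpin in capitals.
miR-10a-5p form 1: taccctgtagatccgaatttgt
miR-10a-5p form 2: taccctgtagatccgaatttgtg
miR-10a-5p form 3: taccctgtagatccgaatttgtgt
miR-10a-5p form 4: taccctgtagatccgaatttg
miR-10a-5p form 5: taccctgtagatccgaatttgC
miR-10b-5p form 1: taccctgtagaaccgaatttgt
miR-10b-5p form 2: taccctgtagaaccgaatttgtg
miR-10b-5p form 3: taccctgtagaaccgaatttgtgt
miR-10b-5p form 4: taccctgtagaaccgaatttg
miR-10b-5p form 5: taccctgtagaaccgaatttgC
Both members had the same 5 forms in the same order. Form 1, 1 base shorter than the RefSeq sequence, held 41.1% to 52.4% of miR-10a-5p and 38.8% to 52.5% of miR-10b-5p reads. Form 5, which ends in an untemplated C, held 1.46% to 9.56% and 1.39% to 9.15%. Form 2, the RefSeq sequence, held 14.5% to 33.9% and 17.2% to 29.8%.

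By length, 22-nt reads were the most common in every library, at 45.1% to 62.0% of miR-10a-5p and 46.2% to 60.4% of miR-10b-5p reads. Reads of 23 nt followed, at 17.3% to 36.1% and 20.7% to 32.3%. The mean length of miR-10a-5p was 22.4 ± 0.06 nt in HFD and 22.5 ± 0.12 nt in ND libraries (SD, n = 4 each; exact permutation p = 0.314, adjusted 0.55). That of miR-10b-5p differed by -0.00307 nt between the diets (HFD minus ND; exact permutation p = 1). The members did not differ in mean length beyond the spread of libraries (0.00388 nt longer for miR-10a-5p, higher in 5 of 8 libraries, exact sign permutation p = 0.844).

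Over all lengths, the share of reads whose last base is not in the hairpin was highest in the libraries of set B. For miR-10a-5p it was 20.2% and 9.15% in Dnmt2-/- HFD, 18.2% and 19.3% in Dnmt2+/+ HFD, 10.4% and 9.71% in Dnmt2-/- ND and 10.3% and 14.01% in Dnmt2+/+ ND libraries. For miR-10b-5p it was 21.2% and 10.7%, 19.8% and 20.2%, 12.8% and 12.6%, and 14.2% and 14.4% in the same order. The 3 libraries of set B stood at 18.2% or more for both members, and the other 5 at 14.4% or less. By diet miR-10a-5p averaged 16.7% ± 5.10 in HFD and 11.1% ± 1.96 in ND libraries, and miR-10b-5p 17.98% ± 4.86 and 13.5% ± 0.95 (SD, n = 4 each; exact permutation p = 0.143, adjusted 0.4 for each). Within set C the HFD library was the lower one, at 9.15% against 14.01% for miR-10a-5p and 10.7% against 14.4% for miR-10b-5p.

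Reads of 24 nt went the other way from the diet means over all lengths, and the same way as set C. An untemplated last base ended 31.2% to 34.3% of 24-nt miR-10a-5p reads in HFD and 41.5% to 48.7% in ND libraries. For miR-10b-5p it was 36.1% to 47.8% in HFD and 48.5% to 68.04% in ND libraries. The diets did not overlap for either member at this length, but for miR-10b-5p the nearest libraries were 47.8% on HFD and 48.5% on ND. These shares rest on the 24-nt reads alone. The split was seen after the values were and was not tested. Last bases of other arms were not divided by read length, so whether other arms split the same way was not tested either. Among 22-nt reads the shares were 6.30% to 20.7% in HFD and 4.28% to 12.9% in ND libraries for miR-10a-5p, and 6.96% to 20.6% and 4.01% to 13.1% for miR-10b-5p, which overlapped.

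Of the last bases that could be called untemplated, most were A or C. The call cannot see an added base that equals the hairpin's at that place. The most common form of both members ends where the hairpin has U, so a U added there was counted as templated. The RefSeq sequence ends where the hairpin has G, so the same holds for a G added there. The shares of added U and G are therefore understated, and how they compare with A and C was not tested. Untemplated C ended 11.3% and 3.01% of miR-10a-5p reads in Dnmt2-/- HFD, 8.24% and 11.2% in Dnmt2+/+ HFD, 2.88% and 1.82% in Dnmt2-/- ND and 1.82% and 6.82% in Dnmt2+/+ ND libraries. The median of 22 other arms gave 12.1%, 3.91%, 10.4%, 12.0%, 3.86%, 2.37%, 2.49% and 8.25% in the same library order. C was thus high in set B and in Dnmt2+/+ ND 2 for miR-10a-5p and for the median arm alike. Untemplated A varied less, at 5.08% to 8.19% of miR-10a-5p and 6.01% to 11.4% of miR-10b-5p reads. Between the members, an untemplated last base was rarer in miR-10a-5p in 8 of 8 libraries (13.9% ± 4.67 and 15.7% ± 4.03, SD, n = 8; mean difference -1.84 percentage points, exact sign permutation p = 0.00781, the smallest that 8 pairs can give). That test was added after the data were seen. With 8 of 8 libraries in the same direction it can give no other p, so it adds nothing to that count.

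**Figure D4:**
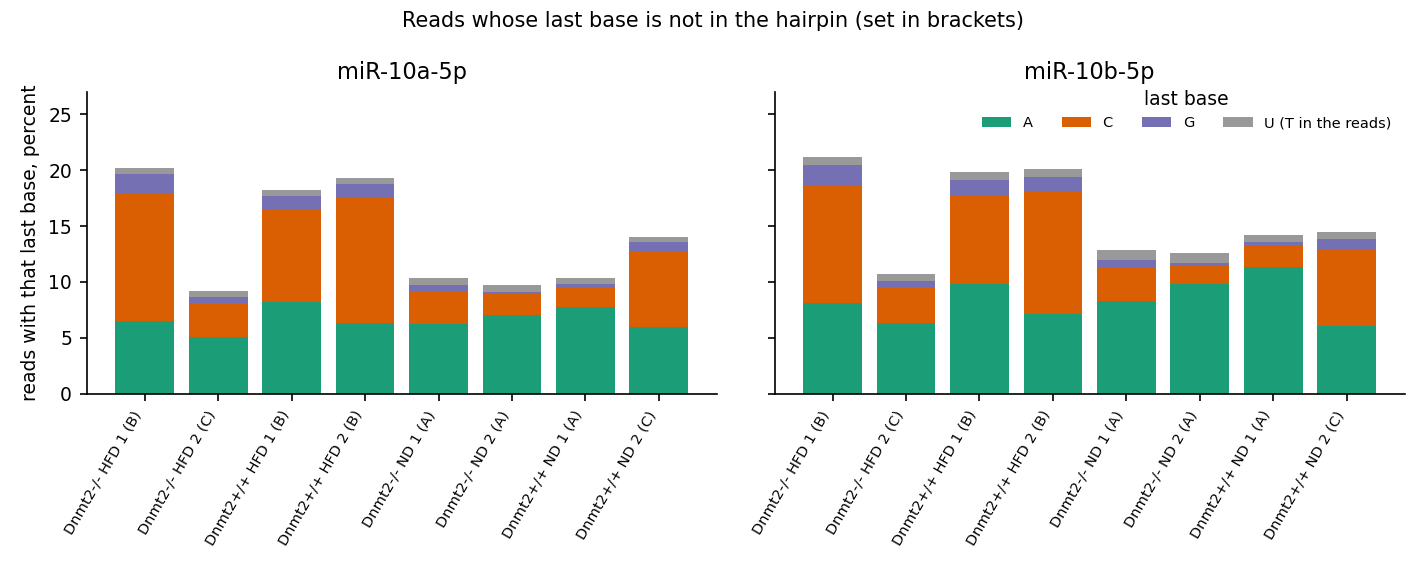
Percent of miR-10a-5p (left) and miR-10b-5p (right) reads whose last base is not in the hairpin, by library, stacked by that base (A, C, G or U). Letters in brackets give the sequencing set. The C part is largest in the 3 libraries of set B (8.24% to 11.3% of miR-10a-5p) and the A part varies less.

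Many reads of miR-10a-5p lacked the first U and so fell outside the counting rule. These reads were chosen after their values were seen, so they carry no test. They begin at base 2, so the bases in the place of the seed, in capitals, become CCCUGUA.
miR-10a-5p from base 2: aCCCUGUAgauccgaauuugug
miR-10b-5p from base 2: aCCCUGUAgaaccgaauuugug
Of all miR-10a-5p reads, 33.2% and 35.4% began there in Dnmt2-/- HFD, 37.1% and 30.04% in Dnmt2+/+ HFD, 40.3% and 41.8% in Dnmt2-/- ND and 41.1% and 33.997% in Dnmt2+/+ ND sperm. Of miR-10b-5p reads it was 19.7% and 18.3%, 23.1% and 18.5%, 21.9% and 21.2%, and 21.4% and 16.8%. Each library had a higher share for miR-10a-5p, and the members' ranges did not overlap.

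The share that began at base 2 averaged 36.6% ± 4.21 for miR-10a-5p and 20.1% ± 2.13 for miR-10b-5p (SD, n = 8). The difference was 16.5 ± 3.20 percentage points, higher in 8 of 8 libraries. Among reads from base 2 the ratio of miR-10a-5p to miR-10b-5p was 2.73 to 3.74 in HFD and 3.00 to 3.28 in ND libraries, which overlapped. With both starts counted it was 1.66 to 1.93 in HFD and 1.52 to 1.65 in ND libraries, which did not. A start 1 base before the mature sequence was seen in 0.545% to 0.979% of miR-10a-5p reads and in at most 0.0130% of miR-10b-5p reads.

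**Figure D5:**
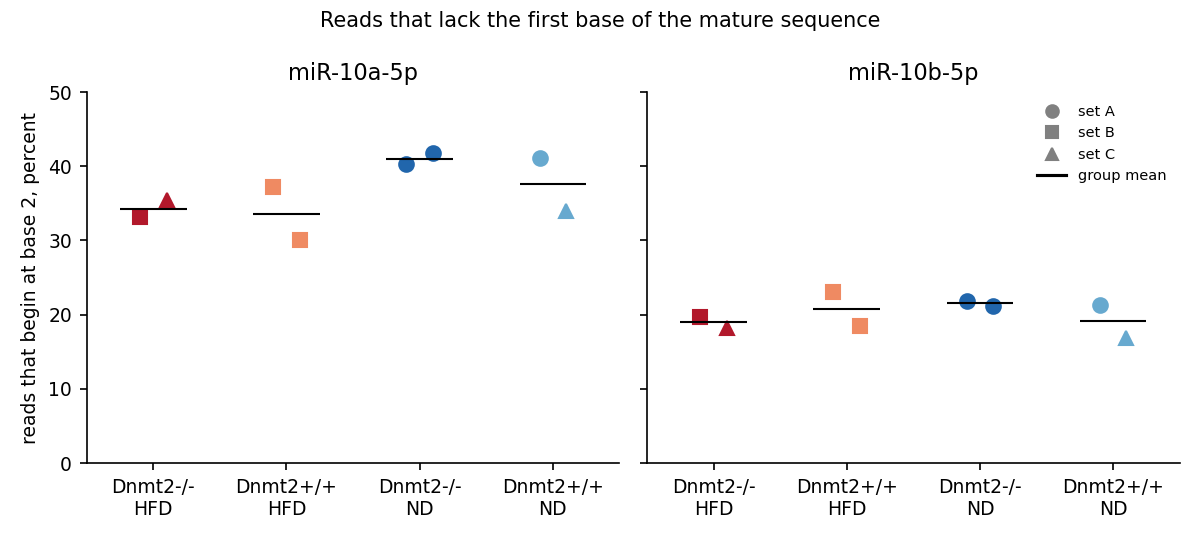
Percent of reads that begin at base 2 of the mature sequence, for miR-10a-5p (left) and miR-10b-5p (right), by group. Points are libraries, shaped by sequencing set, and bars are means of 2. The miR-10a-5p libraries lie at 30.04% to 41.8% and the miR-10b-5p libraries at 16.8% to 23.1%.

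Reads with 1 mismatch in the first 20 bases were far fewer than exact reads, and the source of the mismatches was not tested. A read with C or G at base 12, where the members differ, is 1 mismatch from both and was counted for neither. Such reads came to 15.3 to 26.8 (C) and 12.5 to 18.6 (G) per 10000 reads of the members together. Reads with 1 mismatch elsewhere in the first 20 bases came to 3.95% to 6.08% of the exact reads of miR-10a-5p and 3.98% to 6.24% of those of miR-10b-5p.

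The opposite arms of the hairpins, usually discarded, were rare. miR-10a-3p had 47 and 9 reads in Dnmt2-/- HFD, 59 and 40 in Dnmt2+/+ HFD, 4 and 7 in Dnmt2-/- ND and 9 and 95 in Dnmt2+/+ ND libraries. miR-10b-3p had 0 to 12 reads in a library. Libraries of set B and Dnmt2+/+ ND 2 held the most of both.

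The wider family, miR-99a-5p, miR-99b-5p and miR-100-5p, was at lower levels. Summed, it reached 303 to 610 CPM in HFD and 134 to 511 CPM in ND libraries, and no arm had all HFD above all ND libraries. miR-100-5p was at 57.1 and 56.9 CPM in Dnmt2-/- HFD, 63.1 and 45.9 in Dnmt2+/+ HFD, 25.9 and 22.3 in Dnmt2-/- ND and 31.6 and 47.4 in Dnmt2+/+ ND sperm. None of the 3 passed in any comparison (edgeR, adjusted p from 0.203 to 0.977).

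Other microRNAs of the Hox clusters were far lower. miR-196a-5p was at 58.4 and 11.3 CPM in Dnmt2-/- HFD, 65.8 and 50.4 in Dnmt2+/+ HFD, 1.97 and 0.684 in Dnmt2-/- ND and 0.578 and 7.62 in Dnmt2+/+ ND sperm. Its log2 fold change for HFD against ND was 4.70 ± 1.40 in Dnmt2-/- (edgeR, adjusted p = 0.141) and 3.83 ± 1.34 in Dnmt2+/+ sperm (0.31). miR-196b-5p was at 3.68 to 34.2 CPM in HFD and 0.315 to 6.23 CPM in ND libraries. miR-615-3p was at most 0.44 CPM and was not tested.

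Over the 8 libraries, the arms whose log2(CPM + 1) followed the summed members most closely, among 25 others of at least 100 CPM, were miR-465c-5p (Pearson r = 0.92), let-7i-5p (0.92), miR-183-5p (0.88), let-7f-5p (0.88) and let-7a-5p (0.88). As shares of microRNA reads they were miR-25-3p (0.91), miR-30a-3p (0.89), miR-465b-5p (0.87), miR-184-3p (0.81) and miR-465c-5p (0.80). miR-465c-5p was in both sets of 5, while let-7f-5p had r = -0.62 on the second scale. miR-10a-5p with miR-10b-5p gave 0.98 and 0.97. These values describe libraries that share groups, sets and totals, and carry no test.

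Markers of other cell types differed between libraries, and none passed in any comparison (edgeR, adjusted p of at least 0.0744). The 5 epithelial microRNAs (miR-200a-3p, miR-200b-3p, miR-200c-3p, miR-141-3p and miR-429-3p) were all detected and summed to 608 to 3987 CPM in HFD and 190 to 1914 CPM in ND libraries, which overlapped. Within set C the sum was 608 CPM in the HFD library and 1914 CPM in the ND library. The libraries of set B had 64.7 to 75.3 CPM of miR-206-3p, a muscle microRNA, and the other 5 had no more than 0.676 CPM. Blood microRNAs, 4 of 5 in the sequence table detected, summed to 3.01 to 4.66 CPM in HFD and 0.455 to 5.27 CPM in ND libraries, with miR-144-3p at 0 throughout. The germ cell list, 5 of 5 in the table detected, summed to 342 to 797 CPM in HFD and 336 to 1458 CPM in ND libraries. Most of this sum was miR-881-3p, at 270 to 1398 CPM over the 8 libraries. The others reached at most 78.1 CPM (miR-470-5p), 32.0 (miR-741-3p), 4.76 (miR-449a-5p) and 0.295 (miR-34b-5p). The part of other cells in the miR-10 levels was not tested.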

How the data were processed

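Trizol-extracted RNA of cauda epididymal sperm was, per the labels' protocols, made into libraries with Illumina's TruSeq kit for small RNA. The deposited values are whole-number counts, one for each different read, beside its sequence and length. Builds in the submitters' processing notes are mm10 and GRCm38. Adapter trimming and read filters are not given in the sources used here, and the reads are 18 to 44 nt long. The 8 libraries of 3T3 cells were not used here.

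Reads of 20 to 26 nt were assigned to the arm whose first 20 bases they begin with, without mismatch, over 1621 distinct starts of RefSeq mouse microRNAs (GRCm38.p6 table). CPM is the deposited count scaled to 1000000 reads of the library. Mature arms outside that table, such as miR-143-3p, miR-145a-5p, miR-1a-3p, miR-133a-3p, miR-122-5p, miR-150-5p, miR-486a-5p and miR-34c-5p, were not analysed here, so microRNA totals leave them out. A last base was called untemplated where it differs from the hairpin's base at that place; bases 21 onward before it were not checked.

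Counts of the 187 arms that passed filterByExpr were tested with edgeR 4.0.16 (R 4.3.3; quasi-likelihood, 4 groups in one fit, total reads as library size, Benjamini-Hochberg adjusted p under 0.05). For 7 measures per library, diets and genotypes were set against each other with an exact permutation test (two-sided, 4 against 4), adjusted over 14 tests. A permutation of 2 libraries against 2 cannot go below p = 0.333, so such values carry no test. Members were compared within libraries by an exact sign permutation test, added after the data were seen. Alternatives were TMM, microRNA totals, DESeq2 1.42.0, no filter, a replicate block, a shorter match, 1 mismatch, a set term and each library left out. On data simulated for HFD against ND in Dnmt2+/+ sperm, 4 of 40 arms changed 8-fold were called among 187 arms, with 0 false calls.

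Depth was 10165031 to 19030258 reads, so 0 counts allow up to 0.158 to 0.295 CPM (3 counts). Taken over all reads of a member, the 95% Wilson interval of a share was at most ± 0.896 percentage points. Shares among reads of a single length rest on fewer reads, and their intervals were not computed. The depth and Wilson limits cover counting error only, since PCR copies were not marked by molecular identifiers. No pair of libraries of one group agreed within counting noise (chi-square per arm 94.3 to 1334). Replicate numbers did not pair the libraries: deviations of same-numbered libraries correlated at -0.559 to 0.578.

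Always named were both members, their 3p arms, the 5 reads of each member with the highest mean level, the wider family and the other Hox microRNAs, and the 5 arms most like the members on each scale. The members and lists were chosen with earlier results of these data known. let-7f-5p, miR-182-5p, miR-200c-3p and the markers are named beside results they bear on, and the reads from base 2 were chosen after their values were seen. Figures were drawn with matplotlib 3.10.9.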

Additional observations from a re-analysis of the deposited data

Results flagged for a closer look

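Dixon's test was run 44 times, each time on a measure in the 4 libraries of a diet or genotype. The gap from the highest or lowest library to the next was compared with the range of the 4. The limit of the test was exceeded 6 times. Chance flags about 1 test in 20, but the 44 share libraries and related measures, so that rate is only a guide.

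Dnmt2+/+ ND 2, the one ND library of set C, was apart from the other 3 ND libraries in 4 measures. Its mean read length was lowest, at 22.2959 nt for miR-10a-5p and 22.2655 nt for miR-10b-5p. Its share of miR-10a-5p reads with an untemplated last base was highest, at 14.01%, and its share of miR-10b-5p reads from base 2 was lowest, at 16.8%.

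Dnmt2-/- HFD 1, of set B, was apart from the other Dnmt2-/- libraries with an untemplated last base on 20.2% of miR-10a-5p reads. Dnmt2-/- HFD 2, the one HFD library of set C, was apart from the other HFD libraries with 10.7% for miR-10b-5p. The part of the sequencing set in these values was not tested.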

How the results depend on the processing

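The members' log2 fold changes by diet and by genotype all changed sign under the 3 scalings that rest on microRNA counts, and those of the interaction did not. For HFD against ND in Dnmt2-/- sperm the log2 fold changes were -0.54 (TMM), -0.24 (microRNA reads as library size) and -0.44 (DESeq2) for miR-10a-5p, and -0.87, -0.57 and -0.77 for miR-10b-5p. In Dnmt2+/+ sperm they were -0.86, -0.62 and -0.77 for miR-10a-5p, and -1.09, -0.86 and -1.00368 for miR-10b-5p. For Dnmt2-/- against Dnmt2+/+ on HFD they were 0.56, 0.50 and 0.43 for miR-10a-5p, and 0.45, 0.40 and 0.32 for miR-10b-5p. On ND they were 0.24, 0.13 and 0.097 for miR-10a-5p, and 0.23, 0.11 and 0.085 for miR-10b-5p. None of these passed (adjusted p from 0.479 to 0.999912). The cause was not tested.

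The one call of a member came for miR-10a-5p, HFD against ND in Dnmt2-/- sperm, without Dnmt2+/+ ND replicate 1 (edgeR, adjusted p = 0.0314) or replicate 2 (0.0295). Counts of called arms depended on the library left out. For HFD against ND they ran from 0 to 68 in Dnmt2-/- sperm (68 without either Dnmt2+/+ ND library, 10 without Dnmt2-/- HFD replicate 2) and from 0 to 72 in Dnmt2+/+ sperm (72 without Dnmt2+/+ ND replicate 2, 7 without either Dnmt2-/- HFD library). For Dnmt2-/- against Dnmt2+/+ on ND they ran from 0 to 84 (84 without Dnmt2+/+ ND replicate 1). For HFD against ND the counts in Dnmt2-/- and Dnmt2+/+ sperm, 1 each with edgeR and total reads, were 0 and 0 with TMM, 0 and 3 with microRNA reads as library size, 3 and 18 with DESeq2, 20 and 13 with no filter, and 0 and 0 with the sequencing set as a term.

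With the set as a term, the HFD minus ND difference in mean length turned to 0.0921 nt for miR-10a-5p and 0.113 nt for miR-10b-5p, and in untemplated last bases to -5.40 and -3.54 percentage points. The genotype difference in untemplated last bases of miR-10a-5p turned to 0.548 points. The diet differences with this term rest on set C, since set A was all ND and set B all HFD. The libraries of set C also differ in genotype. Counting from 18 bases moved the diet difference in miR-10b-5p length to 0.000663 nt, and leaving out let-7 moved that in miR-10 share to 6.91 points. With each library left out, the diet difference in miR-10b-5p length ran from -0.0594 to 0.01995 nt, its genotype difference from -0.00609 to 0.0752 nt, and the genotype difference in log2 ratio from -0.00533 to 0.13. For the summed level this diet difference ran from 2101 to 2704 CPM, and for the log2 ratio from 0.26 to 0.31. The diets did not overlap in either measure, so leaving out 1 library could change the size of the difference but not its direction.

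Replicate numbers did not pair the libraries. Every group holds 1 library of each number, so a replicate block cannot change the diet differences of 2383 CPM and 0.29 (log2 ratio). With the block 1 arm passed in each diet comparison, and no call changed. Permutation within numbers cannot go below 0.0556. Depth limits the 3p arms, at 0 to 95 reads.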
